A study of Mus musculus with 23 samples.

Results

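Messenger RNA of the circumvallate papilla, which holds taste buds and sits far back on the tongue, was compared between energy-restricted and lean mice on 15 of the 23 arrays of the study. The members were chosen by their labelled condition: 8 arrays labelled DIO-R against 7 labelled Lean. All came from male C57Bl6/j mice that carried no genetic change named in the labels. Lean mice ate a standard chow with 3% fat by weight without limit. DIO mice ate a high-fat obesogenic diet rich in saturated fatty acids, and some of them were then held to 60% of the energy taken freely. The labels do not spell out DIO-R, which is read here as those restricted mice. The restricted group therefore differed from Lean both in its feeding history and in being restricted, and the comparison cannot tell these apart. The length of the diets, the age of the mice, what the restricted mice were fed and the hour of feeding and of dissection are not given in the sources used here. Nothing in the labels ties each array to its own animal, so the p-values measure the spread between these samples, which may in part be technical.

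Cells of most tissues keep a clock in which the activators Bmal1 (Arntl) and Clock switch on Per, Cry and Rev-erb (Nr1d1, Nr1d2) genes, whose proteins then switch the activators off. Clock output factors such as Dbp and Tef cycle with the Per arm, and Nfil3 and Bmal1 itself cycle in the opposite phase under Rev-erb and Ror. Fatty acids are burned or stored under separate programmes: the fatty acid receptors PPAR switch on genes for transport and oxidation, and SREBP factors switch on genes for synthesis and desaturation. Meal times and fasting are known to act on both the clock and these programmes in many tissues.

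Of the spots on an array, none was saturated, and between 66.9% and 78.4% of the probes were well above background. Correlations between arrays over genes lay between 0.965 and 0.991. Both groups were spread over the 3 slides, with 2, 3 and 3 DIO-R arrays and 3, 2 and 2 Lean arrays. Levels are given as log2 intensity relative to the 75th percentile of the same array, so a level below 0 is dimmer than that percentile, and levels of different genes are not set against each other. Taste cell and keratinocyte genes were detected. In type II taste cell transduction, 17 of the 18 genes kept were well above background on all 15 arrays. In differentiated keratinocytes, 37 of the 38 genes kept were. The full lists held 20 and 42 genes. A gene was kept only if it was well above background on enough arrays, so high shares are partly built in. They are therefore no separate check of the tissue label. Genes of skeletal muscle, adipocytes and the Von Ebner gland, which opens into the trench of the papilla, were also above background and varied among arrays. Lean 3 and DIO-R 5 were the lowest of their groups in the gland list, with scores of -1.02 and -1.96 on a log2 scale centred over the 15 arrays.

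In all, 26 of 27714 genes differed between DIO-R and Lean at an adjusted p under 0.05 (limma, Benjamini-Hochberg over all genes). Of these, 13 rose and 13 fell in DIO-R, each 0.0469% of the genes tested. The set was led by clock genes and by genes of fatty acid use. Each of the 26 lay on the same side in all 3 slides, and in 23 of them no DIO-R array overlapped a Lean array. The 26 were selected on these same arrays, so neither count is independent support. Over all genes with a value on every array, every DIO-R array lay above every Lean array in 0.195%, and below in 0.115%. At an unadjusted p under 0.05, 5.38% of the genes were higher and 5% lower in DIO-R. The median difference over all genes was -0.02, and 45% of all genes were higher in DIO-R. Counts of genes in the lists below stand beside these shares. Scaling moved the split of the calls: 25 of 39 were higher after quantile normalization, 18 of 27 when arrays were scaled to their median, and 28 of 48 in the authors' value table. With skeletal muscle and adipocyte scores as covariates, an alternative chosen after seeing the data, 9 genes passed, 8 of them among the 26.

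**Figure D1:**
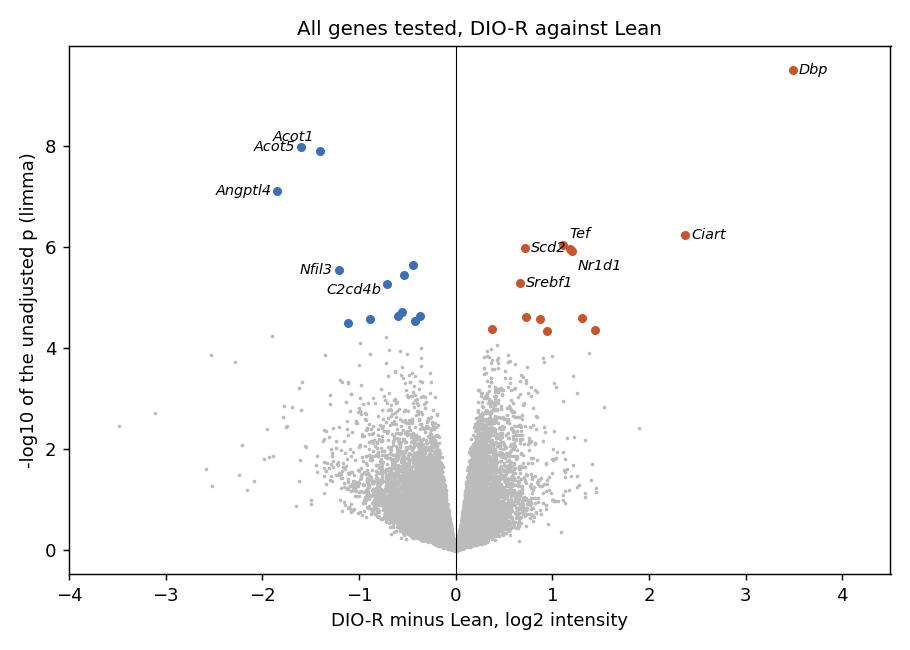
Each point is 1 of 27714 genes, with the DIO-R minus Lean difference (log2 intensity) on the x axis and -log10 of the unadjusted limma p on the y axis; the coloured points are the 26 genes past an adjusted p of 0.05. Dbp stands at 3.49 on the right, and Acot5, Acot1 and Angptl4 at -1.60, -1.40 and -1.84 on the left.

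Clock promoters are shown because the clock genes moved in opposite directions in their 2 arms. Sequences run from 250 bases before to 50 bases after the transcription start (RefSeq, GRCm38.p6), 5′ to 3′ on the gene's strand. Capitals mark an E-box (CACGTG), the letters bound by Bmal1 with Clock, in Ciart and Tef, and a RORE (TAGGTCA), the letters bound by Rev-erb and Ror, in Arntl and Nfil3.
Ciart, chr3:95882179-95882478, minus strand: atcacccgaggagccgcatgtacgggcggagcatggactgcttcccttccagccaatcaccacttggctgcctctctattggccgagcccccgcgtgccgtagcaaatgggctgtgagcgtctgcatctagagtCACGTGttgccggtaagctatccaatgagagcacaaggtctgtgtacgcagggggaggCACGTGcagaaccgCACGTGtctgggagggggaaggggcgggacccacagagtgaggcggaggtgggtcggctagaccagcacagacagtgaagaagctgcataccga
Tef, chr15:81802423-81802722, plus strand: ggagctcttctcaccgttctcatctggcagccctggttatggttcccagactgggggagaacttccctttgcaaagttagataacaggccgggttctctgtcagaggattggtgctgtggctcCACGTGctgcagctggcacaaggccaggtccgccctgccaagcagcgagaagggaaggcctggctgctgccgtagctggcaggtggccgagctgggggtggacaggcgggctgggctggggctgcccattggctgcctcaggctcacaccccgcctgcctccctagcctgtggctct
Arntl, chr7:113207261-113207560, plus strand: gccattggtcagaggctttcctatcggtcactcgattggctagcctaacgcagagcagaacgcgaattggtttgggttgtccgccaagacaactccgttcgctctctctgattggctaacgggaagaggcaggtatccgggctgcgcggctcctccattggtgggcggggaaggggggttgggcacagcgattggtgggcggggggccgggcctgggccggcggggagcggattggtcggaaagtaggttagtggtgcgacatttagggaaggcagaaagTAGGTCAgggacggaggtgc
Nfil3, chr13:52980990-52981289, minus strand: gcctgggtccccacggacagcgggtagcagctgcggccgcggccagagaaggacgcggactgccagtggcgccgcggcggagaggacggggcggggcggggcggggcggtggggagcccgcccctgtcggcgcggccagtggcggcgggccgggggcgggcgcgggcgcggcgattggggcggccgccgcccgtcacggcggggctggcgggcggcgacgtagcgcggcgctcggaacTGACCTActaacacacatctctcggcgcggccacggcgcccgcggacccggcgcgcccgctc
In Nfil3 the RORE is on the opposite strand and reads TGACCTA in the line printed. Counted from the start site, the E-boxes of Ciart begin at -116, -58 and -44 and that of Tef at -127. The RORE of Nfil3 begins at -12 and that of Arntl at 30, in 1 of the 2 Arntl promoters of the table. On both strands, the E-box was found in 4 of the 11 genes of the Per-Dbp arm that have a promoter in the table (Bhlhe41, Ciart, Per1 and Tef), in 1 of the 6 of the Bmal1 arm (Cry1), and in 7.15% of 32851 promoters. The RORE was found in 2 of 6 genes of the Bmal1 arm, in none of the 11 of the Per-Dbp arm, and in 2.61% of all promoters. A gene was counted if any of its promoters matched, while the percentages are shares of single promoters, so these are unlike measures. The promoters printed are examples picked because they hold a match. Dbp, Nr1d1 and Nr1d2, which rose, are not among the genes with an E-box in this window. Bhlhe41 and Per1, which are, differed by only 0.10 and 0.06. A match is a description of these letters in this window only.

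The largest rise in DIO-R was that of Dbp, a transcription factor that the clock drives directly (probe on chromosome 7, 52965461 to 52965520, mm9). Its level ran from 0.16 (median 0.29) to 0.47 in Lean and from 2.55 (median 3.94) to 4.58 in DIO-R. The groups did not come near each other, with DIO-R 3 the lowest restricted array and DIO-R 6 the highest. The difference was 3.49 ± 0.24 (SE, n = 8 and 7; adjusted p = 8.81e-06), an 11.3-fold rise. The restricted arrays varied far more in Dbp than the Lean ones, with an SD of 0.66 against 0.10. A different probe for Dbp gave 3.61.

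Ciart, a repressor of the Bmal1 and Clock pair, was at -5.88 to -4.34 in Lean (median -5.23) and at -3.71 to -1.93 in DIO-R (median -2.79). All DIO-R arrays were higher, and the probe (chromosome 3, 95682433 to 95682492, mm9) was well above background on only 3 of 7 Lean arrays against 8 of 8. Ciart rose by 2.38 ± 0.29 (SE, adjusted p = 0.0032). The size depended on the processing: it was 0.77 with normexp (adjusted p = 0.0282) and 1.25 in the authors' value table (adjusted p = 0.00217). The Rev-erb genes, which repress Bmal1, rose alike. Nr1d1 was at -1.07 to 0.09 in Lean (median -0.75) and 0.21 to 0.78 in DIO-R (median 0.50). Nr1d2 was at 0.54 to 1.28 (median 0.86) against 1.69 to 2.69 (median 2.02). Neither gene overlapped between groups, though Lean 9 came close in Nr1d1. The rises were 1.20 ± 0.15 (SE, adjusted p = 0.00378) and 1.19 ± 0.15 (SE, adjusted p = 0.00374).

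Tef, a factor of the same family as Dbp, was at 4.20 to 4.59 in Lean (median 4.30) and 4.88 to 5.99 in DIO-R (median 5.48). Every restricted array was above every Lean array, a rise of 1.11 ± 0.14 (SE, adjusted p = 0.00374). Per2, a repressor in the core loop, was at -3.75 to -2.69 in Lean (median -3.12) and -2.73 to -1.13 in DIO-R (median -1.56). Here the groups overlapped, because DIO-R 3 fell just below Lean 7, and the rise was 1.44 ± 0.25 (SE, adjusted p = 0.0485). Bhlhe40, a repressor that competes for E-boxes, was at 0.09 to 0.64 in Lean (median 0.33) and 0.77 to 1.51 in DIO-R (median 1.0985). It rose by 0.73 ± 0.12 (SE, adjusted p = 0.0351) with no overlap. The calls of Per2 and Bhlhe40 ended when the slide was a block (adjusted p = 0.0961 and 0.0715). They ended in further settings too, such as the muscle and adipocyte scores as covariates, and held in 7 and 9 of 14. Dbp, Ciart, Nr1d1, Nr1d2 and Tef passed with the slide as a block, without each array in turn, and with those scores as covariates.

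In the Per-Dbp arm as a whole, 13 of 13 measured genes were higher in DIO-R, with a median difference of 1.11 beside -0.02 over all genes, and 7 passed. This list was written with its pattern in these data known. The 6 that did not pass were Per3 (1.11 ± 0.28, SE), Hlf (0.70 ± 0.15), Cry2 (0.43 ± 0.09), Bhlhe41 (0.10 ± 0.22), Per1 (0.06 ± 0.16) and Usp2 (0.05 ± 0.15). Cry2, a core repressor, ranged from 1.91 to 2.23 in Lean and from 2.26 to 2.83 in DIO-R without overlap (adjusted p = 0.0951). Per1, the partner of Per2, spanned 3.00 to 3.36 in Lean and 2.46 to 3.66 in DIO-R, and its difference was -0.07 when its probes were averaged. The members of the arm were thus uneven, from an 11.3-fold rise in Dbp to differences near 0 in Per1 and Usp2.

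In the Bmal1 arm, 7 of 7 genes were lower in DIO-R, with a median of -0.37, and 1 passed. This list too was chosen with earlier results of these data known. Cry1 was placed here and Cry2 in the Per-Dbp arm, so such counts depend on how members were assigned. Nfil3, a repressor that binds the same D-box letters as Dbp, was at 1.77 to 2.63 in Lean (median 2.33) and 0.53 to 1.53 in DIO-R (median 0.99). No arrays overlapped, and Nfil3 fell by 1.21 ± 0.17 on the log2 scale (SE, adjusted p = 0.00715). Arntl itself was at 1.26 to 1.68 in Lean (median 1.59) and -0.22 to 1.15 in DIO-R (median 0.61). Its arrays did not overlap either, but the difference of -0.99 ± 0.18 (SE) gave an adjusted p of 0.0759. Arntl passed in 4 of 14 other settings, among them all 23 arrays in the fit (adjusted p = 0.00729). With 1 array left out it passed in 1 of 15 fits, that without DIO-R 3 (adjusted p = 0.0362). Rora (-0.32 ± 0.11, SE), which activates Bmal1, Npas2 (-0.37 ± 0.08), Cry1 (-0.30 ± 0.12) and Clock (-0.15 ± 0.10) did not pass, with adjusted p from 0.132 to 0.612.

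The DIO-R arrays also differed among themselves in the size of the clock difference. Averaged over the 13 genes of the Per-Dbp arm and centred over the 15 arrays, DIO-R 6 stood highest at 0.99 and DIO-R 3 lowest at -0.04. The Lean arrays lay between -0.70 and -0.35. Among members of that score, DIO-R 3 was the lowest restricted array in Dbp, Ciart, Per2 and Tef. These are parts of the score and no separate support for it. In other members it was not: DIO-R 8 was lowest in Nr1d1 (0.21) and DIO-R 2 in Bhlhe40 (0.77). In the other arm, DIO-R 3 was the highest restricted array in Arntl and Nfil3.

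**Figure D2:**
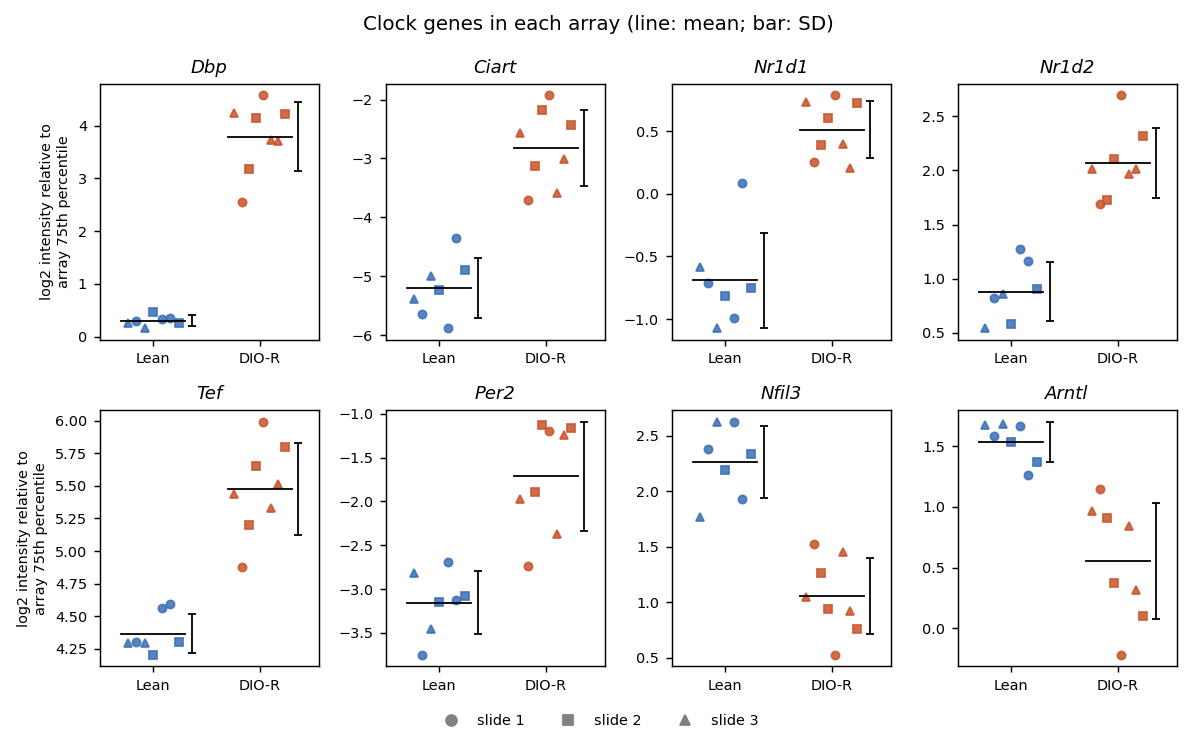
Log2 intensity relative to the array's 75th percentile (y axis) of 8 clock genes in each of 7 Lean and 8 DIO-R arrays; horizontal lines are means, bars are SD and symbols are slides. Dbp, Ciart, Nr1d1, Nr1d2 and Tef are higher in every DIO-R array, Nfil3 and Arntl are lower in every one, and Per2 overlaps.

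Among genes of fatty acid use, Angptl4, Acot1, Acot5, Cpt1a and Plin2 fell in DIO-R. Angptl4, a secreted inhibitor of lipoprotein lipase and a PPAR target (chromosome 17, 33911880 to 33911939, mm9), was at 3.77 to 5.08 in Lean (median 4.41) and 1.90 to 3.21 in DIO-R (median 2.57). No array overlapped, DIO-R 7 being the highest restricted one, and the fall was 3.59-fold (log2 difference -1.84 ± 0.19 SE, adjusted p = 0.000551). Acot1, a cytosolic thioesterase that frees fatty acids from coenzyme A, was at 4.59 to 5.27 (median 4.86) against 3.20 to 3.89 (median 3.44). Its restricted and Lean arrays were also apart, by -1.40 ± 0.13 (SE, adjusted p = 0.00012). Acot5, its peroxisomal relative, was at -0.9997 to -0.06 in Lean (median -0.66) and -2.64 to -1.93 in DIO-R (median -2.18), a difference of -1.60 ± 0.14 (SE, adjusted p = 0.00012). A different Acot5 probe differed by only -0.15, and the mean of the probes did not pass (-0.88, adjusted p = 0.0537). Acot1 and Acot5 lie close together on chromosome 12 and are much alike, so their probes may share signal.

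Cpt1a, which loads long-chain fatty acids onto carnitine for entry into mitochondria, was at 2.95 to 3.39 in Lean (median 3.14) and 2.45 to 2.82 in DIO-R (median 2.57). The groups did not overlap, and Cpt1a fell by 0.54 ± 0.08 on the log2 scale (SE, adjusted p = 0.00842). Plin2, the coat protein of lipid droplets, was at 3.26 to 3.44 (median 3.38) against 2.74 to 3.01 (median 2.96) and fell by 0.44 ± 0.06 (SE, adjusted p = 0.00645), again with no overlap. Pdk4, the kinase that keeps pyruvate out of the citric acid cycle when fat is burned, had the largest difference among the PPAR and oxidation genes but did not pass. It ran from 4.09 to 6.65 in Lean (median 5.32) and from 1.09 to 4.29 in DIO-R (median 2.84), where DIO-R 7 overlapped Lean 3. Its difference was -2.53 ± 0.50 (SE, adjusted p = 0.0913), and the adjusted p was 0.0496 without Lean 3 and 0.0152 with all 23 arrays in the fit. Pdk4 passed in only 1 of 15 fits with 1 array left out and in 3 of 14 other settings. Acot2, the mitochondrial relative of Acot1, did not pass (-0.996 ± 0.21, SE, adjusted p = 0.102).

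Of 41 genes listed as PPAR targets or enzymes of fatty acid oxidation, 40 were lower in DIO-R, with a median of -0.30. The list's 4 calls were Angptl4, Acot1, Cpt1a and Plin2, and 20 of its genes had an unadjusted p under 0.05, all lower, against 5% of all genes in that direction. The median was -0.29, -0.52 and -0.05 within slides 1, 2 and 3. Adipocyte and muscle genes were lower in DIO-R too. The adipocyte score is made of lipid genes on these same arrays, such as Fabp4, Lpl and Plin4. A smaller median after adjusting for it therefore cannot tell fewer such cells from lower levels of lipid genes. With the muscle and adipocyte scores as covariates, 11 of the 41 were higher, the median was -0.09, and Cpt1a and Plin2 did not pass, at differences of -0.60 and -0.41 (adjusted p = 0.0691 and 0.311). Under the same covariates Angptl4 (-1.87), Acot1 (-1.09) and Acot5 (-1.28) passed with adjusted p of 0.0359, 0.00133 and 0.00264, and Pdk4 passed too (-1.71, adjusted p = 0.00264).

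Of the enzymes and regulators of fatty acid synthesis, Scd2 and Srebf1 rose. Scd2, a desaturase that makes monounsaturated fatty acids, was at 3.38 to 3.98 in Lean (median 3.65) and 4.22 to 4.65 in DIO-R (median 4.38). The groups were apart by 0.72 ± 0.09 (SE, adjusted p = 0.00374), a 1.64-fold rise. Srebf1, the transcription factor that switches on lipogenic genes, was at -2.06 to -1.59 (median -1.79) against -1.51 to -0.83 (median -1.12). It rose by 0.67 ± 0.10 (SE, adjusted p = 0.0109) with no overlap. With the marker scores as covariates the differences were 0.61 and 0.65, and neither passed (adjusted p = 0.283 and 0.0988). Across the 25 genes of the synthesis and desaturation list, 17 were higher, and the median was 0.04. Scd1 (0.15 ± 0.12, SE), the closest relative of Scd2, and Fasn, fatty acid synthase (0.14 ± 0.12), did not pass, and Fasn was at -0.02 with the marker scores as covariates. Among 25 cholesterol genes 10 were higher and 15 lower with a median of -0.05, and Hmgcs1, an early synthesis enzyme, differed by -0.15 ± 0.15 (SE).

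**Figure D3:**
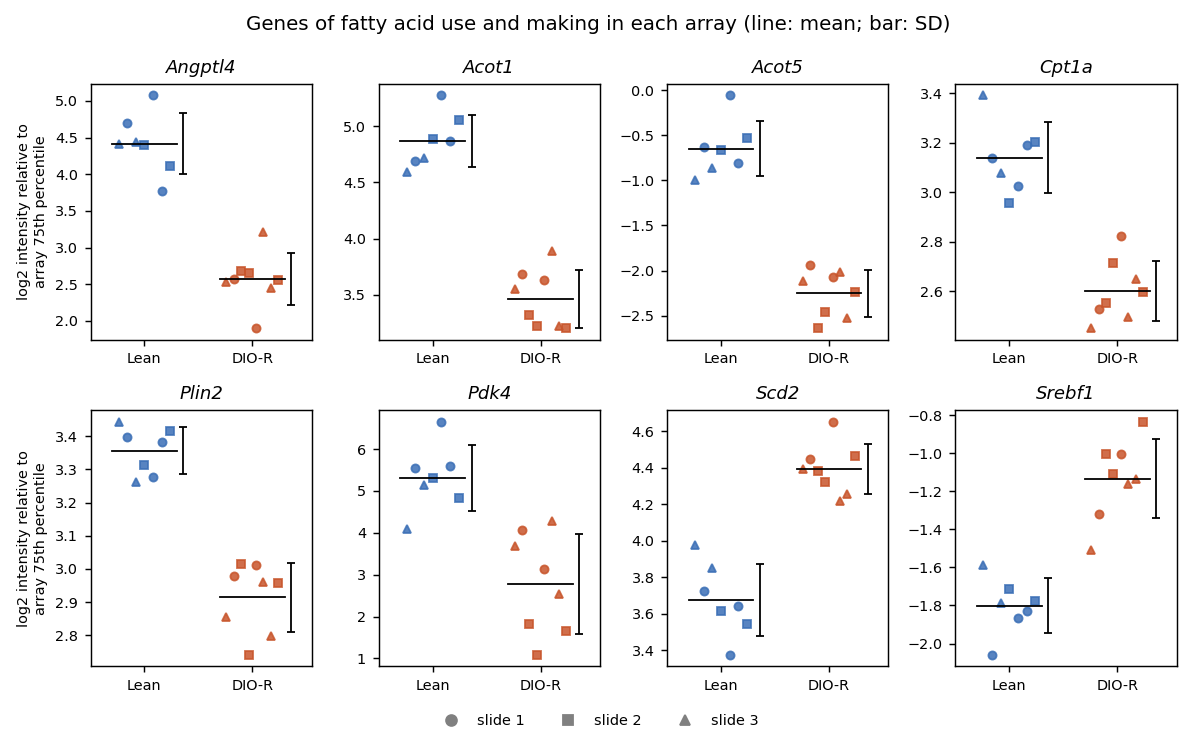
Log2 intensity relative to the array's 75th percentile (y axis) of 8 genes of fatty acid use and synthesis in 7 Lean and 8 DIO-R arrays, with means (lines), SD (bars) and slides (symbols). Angptl4, Acot1, Acot5, Cpt1a and Plin2 are lower in every DIO-R array, Scd2 and Srebf1 are higher in every one, and Pdk4 overlaps.

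The remaining calls belong to no list examined, save Cxcl5. Among those that fell, Cxcl5, a chemokine that draws neutrophils, was at 4.81 to 5.38 in Lean (median 4.94) and 3.05 to 4.48 in DIO-R (median 3.93). Its arrays did not overlap, and it fell by 1.11 ± 0.19 on the log2 scale (SE, adjusted p = 0.0386). Acsbg1, which activates very long fatty acids, was at 3.36 to 4.35 (median 3.65) against 2.57 to 3.20 (median 2.78), a fall of 0.89 ± 0.15 (SE, adjusted p = 0.0351). C2cd4b, a nuclear calcium-domain protein, was at -1.89 to -1.28 against -2.56 to -1.99 and fell by 0.71 ± 0.10 (SE, adjusted p = 0.0109). Klf11, a Kruppel-like repressor, fell by 0.56 ± 0.09 (SE, adjusted p = 0.0351), and Aldh9a1, an aldehyde dehydrogenase of the carnitine pathway, by 0.42 ± 0.07 (SE, adjusted p = 0.0374). In none of these 5 did the groups overlap. The other 2 lower calls were Gm128, whose probes pointed in opposite directions (-0.37 and 0.39), and a probe without a gene name.

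On the higher side, Camkv, a kinase-like protein without known catalytic activity, was at -2.17 to -1.39 in Lean (median -1.72) and -1.14 to 0.19 in DIO-R (median -0.40), and rose by 1.31 ± 0.22 (SE, adjusted p = 0.0351) without overlap. Eya2, a phosphatase and transcriptional coactivator, was at 3.81 to 4.10 against 4.17 to 4.54 and rose by 0.38 ± 0.07 (SE, adjusted p = 0.0485), also without overlap. Exo1, a nuclease of DNA repair, and S100g, a calcium-binding protein, overlapped between groups. Exo1 was at -2.79 to -1.87 against -1.93 to -0.97 and rose by 0.94 ± 0.17 (SE, adjusted p = 0.0491). S100g was at 0.02 to 0.85 against 0.58 to 1.57 and rose by 0.87 ± 0.15 (SE, adjusted p = 0.0351), with Lean 10 the highest Lean array. For 12 of the calls, namely Per2, Camkv, Exo1, S100g, Bhlhe40, Eya2, Aldh9a1, Klf11, Acsbg1, Cxcl5, Gm128 and the unnamed probe, leaving out 1 array could end the call. Each of them ended without 9 to 14 of the 15 arrays, with adjusted p up to 0.145, and each of the 15 arrays ended at least 1 of them.

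Genes that respond to amino acid shortage were lower as a list. Of 19, 17 were lower, with a median of -0.33. An unadjusted p under 0.05 was found for 12, none higher, beside 5% of all genes lower, and none passed in the limma fit. Slc3a2 and Slc7a5, the 2 chains of a large neutral amino acid carrier, differed by -0.45 ± 0.10 and -0.67 ± 0.17 (SE, adjusted p = 0.12 and 0.178). Atf5, a stress transcription factor, differed by -0.57 ± 0.12 (adjusted p = 0.126) and Asns, asparagine synthetase, by -0.57 ± 0.16 (adjusted p = 0.218). Their arrays overlapped: Asns, for example, spanned 4.18 to 5.28 in Lean and 3.82 to 4.44 in DIO-R. With 1 array left out Atf5 passed in 1 of 15 fits, that without Lean 3 (-0.64, adjusted p = 0.0436), and it passed in 0 of 14 other settings. With the muscle and adipocyte scores as covariates the list's median was -0.26, with 2 of 19 higher and 5 lower genes at an unadjusted p under 0.05.

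Cell cycle and DNA replication genes were higher in 35 of 42, beside 45% of all genes, with a median of 0.24. In this list 21 genes had an unadjusted p under 0.05 and were higher and 1 was lower, beside 5.38% and 5% of all genes. None passed in the limma fit. Cdt1, which licenses replication origins, differed by 0.74 ± 0.15 (SE, adjusted p = 0.108). With 1 array left out it passed in 1 of 15 fits, that without DIO-R 7 (0.82, adjusted p = 0.0407), and it passed in 0 of 14 other settings. Cdc6, of the same step, differed by 0.67 ± 0.15 (adjusted p = 0.132). Ccnd1, cyclin D1, was at 3.17 to 3.62 in Lean and 3.65 to 4.06 in DIO-R without overlap, a difference of 0.38 ± 0.08 (adjusted p = 0.109). With the marker scores as covariates 25 of the 42 were higher, and 6 higher and 5 lower genes had an unadjusted p under 0.05.

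Interferon response genes were higher in 39 of 43, beside 45% of all genes, with a median of 0.33. Of them 14 had an unadjusted p under 0.05, all higher, beside 5.38% of all genes, and none passed in the limma fit. Gbp3, a guanylate-binding protein, was at -1.90 to -0.54 in Lean and -1.12 to 0.23 in DIO-R, with overlap and a difference of 0.83 ± 0.25 (SE, adjusted p = 0.238). Ifi203, a DNA sensor of the interferon family, differed by 0.59 ± 0.18 (adjusted p = 0.251). Macrophage genes were mixed, with 16 of 26 higher and a median of 0.06, differences from -0.82 to 0.73, and 5 higher and 2 lower at an unadjusted p under 0.05. Aif1, a calcium-binding protein of macrophages, was at -0.03 to 0.67 against 0.31 to 1.16 and differed by 0.53 ± 0.14 (adjusted p = 0.189). Itgax, the dendritic cell integrin CD11c, differed by 0.50 ± 0.14 and Slamf9, a myeloid receptor, by 0.38 ± 0.11, and neither passed.

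Cytokines did not move together: 19 of 32 were higher, with a median of 0.09, and Cxcl5 was the 1 call. Ccl3, a macrophage chemokine, was at -4.54 to -4.06 in Lean and -3.81 to -2.21 in DIO-R without overlap and differed by 1.00 ± 0.20 (SE, adjusted p = 0.0913). With 1 array left out Ccl3 passed in 1 of 15 fits, that without DIO-R 5, its highest array (0.84, adjusted p = 0.0146). It passed in 2 of 14 other settings. Ccl7, a monocyte chemokine, differed by 1.26 ± 0.30 and Csf3, the granulocyte growth factor, by 0.75 ± 0.18 (adjusted p = 0.154 for each). The sizes depended on the processing. Over 14 other settings they ran from 0.31 to 1.08 in Ccl3, from 0.63 to 1.32 in Ccl7 and from 0.25 to 0.81 in Csf3. Among heat shock chaperones 15 of 23 were higher, 9 of them with an unadjusted p under 0.05. Dnaja1, a co-chaperone, was at 4.20 to 4.52 against 4.53 to 4.99 and differed by 0.37 ± 0.08 (adjusted p = 0.13), and Hsph1, of the same response, by 0.70 ± 0.18 (adjusted p = 0.177). Immediate early genes divided evenly, 13 of 26 on each side, although Fos differed by 1.21 ± 0.26 (adjusted p = 0.126) and Egr1 by 0.92 ± 0.28 (adjusted p = 0.249). Among retinoid and alcohol dehydrogenases 16 of 25 were higher; Aldh1a3, which makes retinoic acid, was at 1.19 to 1.79 against 1.82 to 3.05 (0.78 ± 0.18, adjusted p = 0.148), and Rdh10, of the step before it, differed by 0.39 ± 0.12 (adjusted p = 0.245).

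The mitochondrial respiratory chain was lower in 34 of 37 subunits, yet by a median of only -0.09, with 0 genes at an unadjusted p under 0.05 and 0 past the threshold in the limma fit. Its median was 0.20, the opposite sign, within slide 3. Genes of the insulin and FOXO response, which follow feeding and fasting, were lower in 23 of 27, with a median of -0.09. At an unadjusted p under 0.05, 7 were lower and 1 higher, beside 5% and 5.38% of all genes. Glucocorticoid response genes were lower in 16 of 21, with a median of -0.13 and 8 lower and 0 higher at an unadjusted p under 0.05, and their 1 call was Angptl4, which is also a PPAR target. Genes of the unfolded protein response, which follows protein load in the endoplasmic reticulum, were higher in 19 of 24, with a median of 0.12 and 8 at an unadjusted p under 0.05. Glucose uptake and glycolysis had 13 of 30 genes higher, a median of -0.02 and 2 higher at an unadjusted p under 0.05.

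No gene of the taste lists passed in the limma fit. In type II cells, which sense sweet, umami and bitter, 9 of 18 transduction genes were higher and 9 lower, with a median of 0.01 and 1 at an unadjusted p under 0.05. The sweet and umami receptor chains Tas1r1, Tas1r2 and Tas1r3 differed by -0.09 ± 0.10, -0.15 ± 0.13 and -0.04 ± 0.14 (SE). Their signalling partners were as close to 0: the G protein Gnat3 at 0.05 ± 0.10, the phospholipase Plcb2 at -0.15 ± 0.12, the calcium channel Itpr3 at 0.17 ± 0.10 and the cation channel Trpm5 at 0.03 ± 0.10. The signs of Tas1r1 and Tas1r3 turned in the authors' value table, that of Tas1r3 also with median scaling, and that of Plcb2 when probes were averaged. With the marker scores as covariates the signs of Gnat3 and Trpm5 turned.

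Among bitter receptors 18 of 24 were higher, with a median of 0.18 and 6 at an unadjusted p under 0.05. Tas2r105, the receptor for cycloheximide, was at -4.12 to -3.58 in Lean and -3.81 to -3.05 in DIO-R (0.41 ± 0.14 SE, adjusted p = 0.317). Pkd2l1, a channel that marks the sour-sensing type III cells, was at -0.64 to -0.31 against -0.51 to 0.19 (0.39 ± 0.11 SE, adjusted p = 0.225), and 15 of 21 type III genes were higher, 2 higher and 1 lower gene having an unadjusted p under 0.05. In type I cells, which surround the others and had 2 of 11 genes at an unadjusted p under 0.05, Entpd2, an enzyme that clears ATP, differed by 0.15 ± 0.07. Hes1, a Notch target, was at 0.31 to 0.91 against 0.92 to 1.38, without overlap, and differed by 0.41 ± 0.09 (adjusted p = 0.148). Among 16 genes of fat sensing, with 1 higher and 1 lower at an unadjusted p under 0.05, Cd36, a fatty acid receptor, was at 0.24 to 2.56 in Lean and -0.94 to 1.75 in DIO-R (-0.81 ± 0.41 SE, adjusted p = 0.525). It differed by -0.57, -1.76 and 0.33 within the 3 slides, and by -0.086 with the muscle and adipocyte scores as covariates. Ffar4, the other fat taste receptor, differed by -0.01 ± 0.12, with its sign turned by quantile or median scaling and in the authors' value table. Among 28 taste bud peptides and hormone receptors, of which 3 were lower at an unadjusted p under 0.05, Lepr, the leptin receptor, differed by -0.11 ± 0.16 and Glp1r, the GLP-1 receptor, by -0.03 ± 0.15, whose sign turned under the same 3 settings. Vipr2, a receptor for the clock peptide VIP, differed by -0.80 ± 0.24 (adjusted p = 0.238). Of 31 genes of taste bud stem cells and renewal, 27 were higher, with a median of 0.11 and 3 at an unadjusted p under 0.05.

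Markers of adipocytes, skeletal muscle and the Von Ebner gland were mostly lower in DIO-R. In a bulk sample fewer cells of a type and less RNA per cell cannot be told apart. Fibroblast and matrix genes were higher in 16 of 26 (median 0.14, with 4 higher and 0 lower at an unadjusted p under 0.05), erythrocyte genes in 9 of 11 (0.08), neutrophil and mast cell genes in 10 of 16 (0.10) and lymphocyte genes in 10 of 18 (0.07), and 17 of 22 genes of endothelium and smooth muscle were lower (-0.12). Adipocyte genes were lower in 15 of 17, with a median of -0.66 and 9 at an unadjusted p under 0.05, and none passed in the limma fit. The list's summed intensity, in multiples of the array's 75th percentile, ran from 46.4 to 132 in Lean and from 28.5 to 68.8 in DIO-R. All but 2 of the 17 were well above background on every array. Cidea, a lipid droplet protein, differed by -0.98 ± 0.22 (SE, adjusted p = 0.142), Plin4, a droplet coat protein, by -1.36 ± 0.43 (adjusted p = 0.27), and Fabp4, the adipocyte fatty acid binding protein, by -0.72 ± 0.37 (adjusted p = 0.527). Skeletal muscle genes were lower in 28 of 31, with a median of -0.52 and sums of 935 to 3690 against 462 to 2610. Only 2 of the 31 were lower at an unadjusted p under 0.05, near the 5% of all genes, and none passed in the limma fit. Actn3, an actin crosslinker of fast fibres, differed by -1.22 ± 0.46 (adjusted p = 0.364). Von Ebner gland genes were lower in 17 of 19, with a median of -0.78 and sums of 1690 to 3800 against 930 to 2770. Of the 19, 4 were lower at an unadjusted p under 0.05, and none passed in the limma fit. Lpo, a salivary peroxidase, differed by -1.12 ± 0.31 (adjusted p = 0.221). Smr3a, a salivary protein gene, was at -7.63 to -1.41 in Lean and -7.71 to -4.46 in DIO-R, a difference of -3.11 ± 0.83 (adjusted p = 0.199), and passed without Lean 3 (-3.85, adjusted p = 0.013). Its probe was well above background on 6 of 7 Lean and 2 of 8 DIO-R arrays, so the size is uncertain: it was -1.0012 with normexp and -1.51 with the muscle and adipocyte scores as covariates. Within slide 3 these 3 lists had medians of 0.07, 0.66 and 0.23, the opposite sign of the pooled ones. That slide holds only 2 Lean arrays, and 1 of them is Lean 3. It was the lowest Lean array in all 3 scores, at -0.57, -0.85 and -1.02. The Per-Dbp arm was at 0.95, 1.30 and 1.03 and the Bmal1 arm at -0.33, -0.58 and -0.38 within slides 1, 2 and 3. Both arms were listed with earlier results of these data known.

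**Figure D4:**
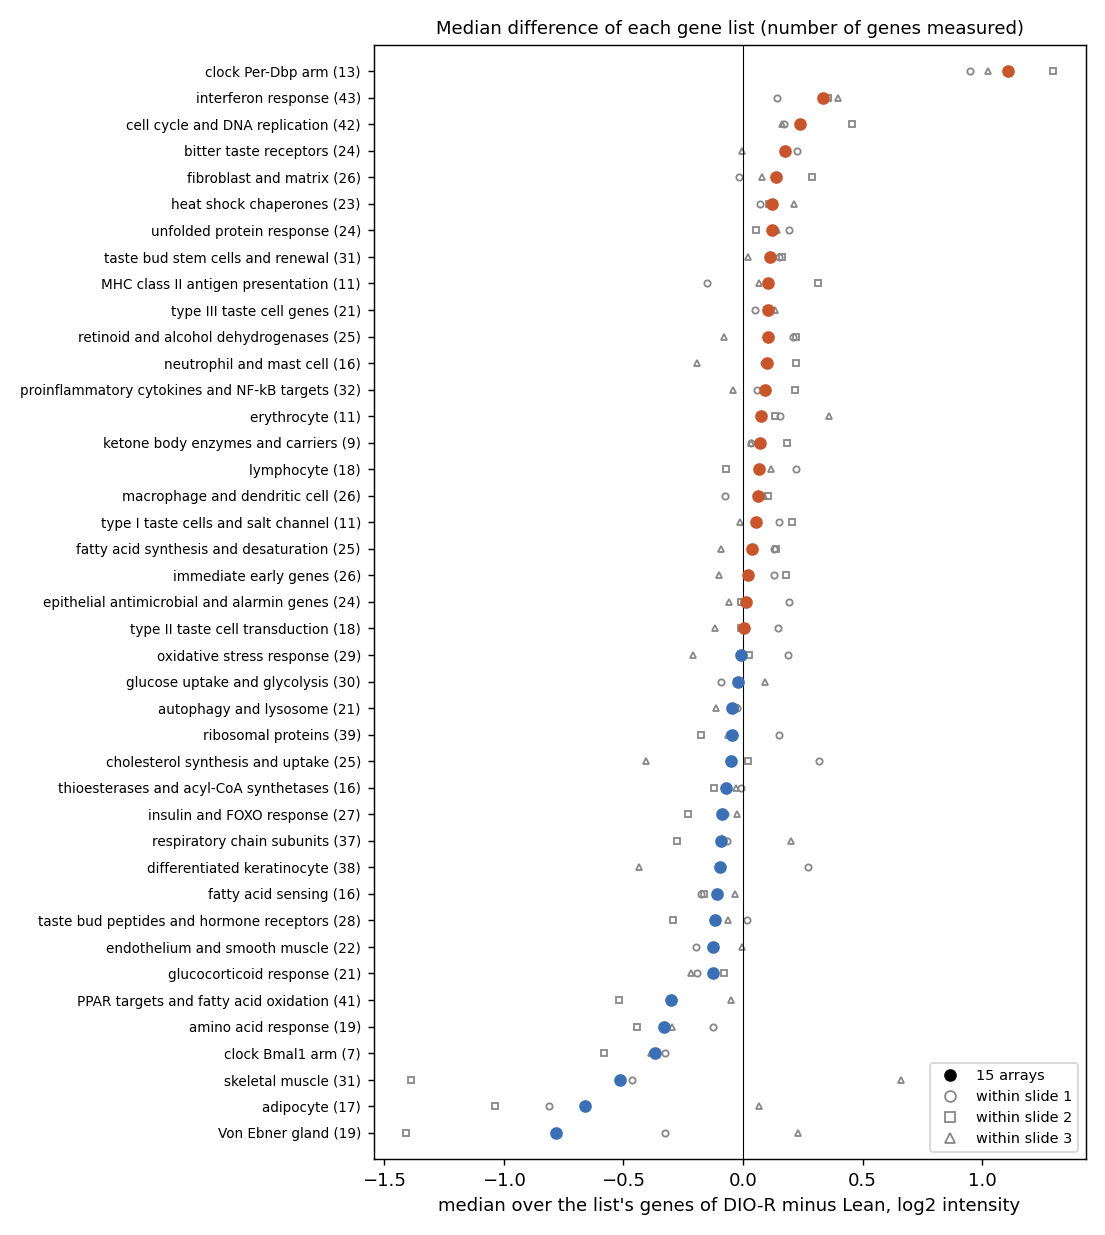
Median DIO-R minus Lean difference (x axis, log2 intensity) over the measured genes of each of 41 lists (y axis, number of genes in brackets): filled circles are the 15 arrays and open symbols the medians within each slide. The Per-Dbp arm stands at 1.11, and skeletal muscle, adipocyte and Von Ebner gland lists, at -0.52, -0.66 and -0.78, have open symbols on both sides of 0.

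The freely fed DIO group, 8 arrays, was set beside the 26 genes in a fit of all 23 arrays, in which 0.0577% of the genes differed between DIO-R and DIO and 0.00361% between DIO and Lean. The 3 comparisons share samples, so their values are given side by side only. The DIO mean lay between those of Lean and DIO-R for 21 of the 26. DIO-R differed from DIO in 10 of them, namely Dbp, Tef, Bhlhe40, Scd2, Aldh9a1, Cpt1a, Klf11, Acot1, Acot5 and Angptl4. DIO differed from Lean in none of them in the limma fit, and in 1 of them with normexp background, in the authors' value table, or with a trended and robust variance. Dbp was at 0.92 to 2.87 in DIO (median 1.73), above all Lean arrays, with DIO minus Lean at 1.52 ± 0.26 (SE, adjusted p = 0.0721) and DIO-R minus DIO at 1.98 ± 0.25 (adjusted p = 0.000655).

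Several of the fatty acid genes had a DIO mean near that of Lean. Angptl4 differed by 0.05 between DIO and Lean (adjusted p = 0.959) and by -1.90 between DIO-R and DIO (adjusted p = 3.78e-06). Acot1 differed by -0.16 and -1.24 in the same order, Cpt1a by -0.05 and -0.49, Plin2 by 0.01 and -0.45, and Scd2 by -0.03 and 0.74. Acot5, at -0.32 and -1.28, and Srebf1, at 0.17 and 0.49, are the other 2 called genes of these lists, and Acsbg1 was at -0.42 and -0.46. For other clock genes DIO was between: Nr1d1 differed by 0.71 between DIO and Lean and by 0.49 between DIO-R and DIO, Nr1d2 by 0.62 and 0.57, and Nfil3 by -0.54 and -0.67, none of them past the threshold. Bhlhe40 differed by -0.02 and 0.76, with the second past it (adjusted p = 0.0404). Camkv and Cxcl5 stood part of the way as well, at 0.77 and 0.54 and at -0.66 and -0.45.

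**Figure D5:**
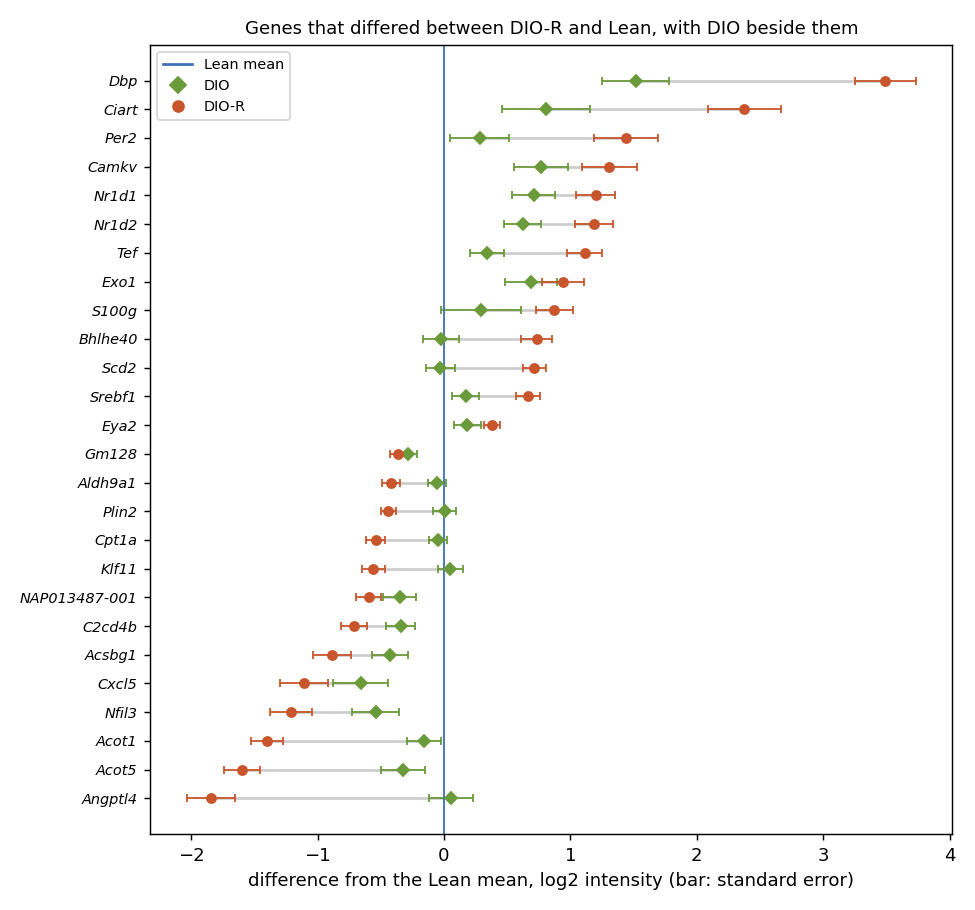
Difference of DIO (diamonds) and DIO-R (circles) from the Lean mean (x axis, log2 intensity, bars are SE) for the 26 genes that differed between DIO-R and Lean. DIO lies near 0 for Angptl4 (0.05) and Scd2 (-0.03), and between Lean and DIO-R for Dbp (1.52).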

How the data were processed

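RNA of circumvallate papilla was hybridised to 1-colour Agilent arrays from 25 ng of total RNA, per the labels. Per the file headers, the deposited spot intensity is the background-subtracted signal of Agilent Feature Extraction 10.10.1.1. The authors' value table, on a log2 scale and used only as an alternative, holds 35829 probes; the submitters' processing notes name limma, and its array medians are 7.63 to 7.64, with its normalization not given in the sources used here. Here, log2 intensity minus the array's 75th percentile was analysed after leaving out control and outlier spots. The brightest probe stood for a gene if it was above background (well above, by the scanner's flag) on 7 or more of 15 arrays, which kept 27714 of 35019 symbols. Symbols follow the array's design, updated through RefSeq for 17092 of the kept genes.

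DIO-R and Lean were compared with limma 3.58.1 in R 4.3.3 (lmFit, eBayes, two-sided), tested on simulated data, with no covariate. Arrays have no read depth, and their number limits the precision. Alternatives were the slide or replicate number as a block, other scaling, background correction, filters and probe rules, variance settings, and each array left out. Named genes were up to 15 calls per direction on the same side in every slide, up to 4 of smallest p per list, and a panel of taste, clock and lipid genes; examples of the lists are printed. The members, 41 lists and alternatives were chosen with earlier results of these data known. Figures were drawn with Python and matplotlib. The mm9 gene models were not used here, and a few genes of the lists and panel are not reported here.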

Additional observations from a re-analysis of the deposited data

Results flagged for a closer look

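In 86 reported genes and 2 groups, 8 of 172 sets of arrays held 1 array that stood apart from the nearest by more than Dixon's 95% limit; chance gives about 1 in 20. Values are log2 intensity relative to the array's 75th percentile. Lean 7 was the highest Lean array in Acot2 (-0.26, next -1.38) and the lowest in Ccnd1 (3.17, next 3.47). Lean 3 was the lowest in Cd36 (0.24, next 1.63) and in Smr3a (-7.63, next -3.37), beside low gland, muscle and adipocyte scores of the same array. Lean 9 was the highest in Nr1d1 (0.089, next -0.59), and Lean 10 in S100g (0.85, next 0.31). DIO-R 6 was the highest DIO-R array in Hmgcs1 (5.54, next 5.07). DIO-R 5 was the highest in Ccl3 (-2.21, next -3.12).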

How the results depend on the processing

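The count of 26 differing genes was 36 with all 23 arrays, 18 with the slide as a block, 39 after quantile normalization, 48 in the authors' value table, 14 without the filter on dim probes, 19 with the mean of probes and 9 with the muscle and adipocyte scores, the last chosen after seeing the data. It was 15 to 56 with 1 array left out, 56 being without Lean 3, and 31 without Lean 3 and DIO-R 5, also chosen after seeing the data. The replicate block gave 0 calls (limma; 2552 genes at an unadjusted p under 0.05). That comparison rests on the 6 numbers that occur in both groups. The numbers were not taken as pairs, because nothing in the labels says that a number pairs animals. Deviations of same-numbered samples correlated at -0.38 to 0.36, and 6 such values cannot tell whether the numbers are pairs. Of the 26, all kept their direction wherever tested, except Gm128 with the mean of probes (0.0099). The number of them also past the threshold between DIO-R and DIO, 10, was 4 with median scaling and 8 to 13 in the other settings run.

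The other signs that turned were of genes that had not passed. With the replicate block they turned in Bhlhe41 (-0.060), Tas1r3 (0.013) and Ffar4 (0.023), with the slide block in Bhlhe41 (-0.0011), and with the mean of probes in Per1 (-0.071) and Plcb2 (0.015). In the authors' value table they turned in Tas1r1 (0.016), Tas1r3 (0.026), Ffar4 (0.049) and Glp1r (0.027), with median scaling in Tas1r3 (0.017), Ffar4 (0.046) and Glp1r (0.030), and with quantile normalization in Ffar4 (0.056) and Glp1r (0.022). With the marker scores they turned in Fasn (-0.018), Gnat3 (-0.037) and Trpm5 (-0.060). With 1 array left out the ranges crossed 0 in Per1 (-0.0027 to 0.170), Bhlhe41 (-0.011 to 0.224), Usp2 (-0.013 to 0.128), Tas1r3 (-0.105 to 0.033), Trpm5 (-0.015 to 0.093), Ffar4 (-0.058 to 0.061), Lepr (-0.183 to 0.018) and Glp1r (-0.094 to 0.042). The cause was not tested.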
